A study of Homo sapiens with 6 samples.

Results

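The plasminogen activation system was followed through 4 genes in hypoxic and normoxic tumor cells: PLAU (Entrez 5328), which encodes urokinase, PLAT (Entrez 5327), which encodes tissue-type plasminogen activator, PLAUR (Entrez 5329), which encodes the urokinase receptor, and SERPINE2 (Entrez 5270), which encodes the serpin protease nexin-1. They were taken by symbol from a table of 21776 genes, and all 4 were listed there. RNA sequencing compared the SCC25 line, an established line from an oral squamous cell carcinoma, after 12 h in hypoxia (1% O2) with the same line in normoxia (air with added CO2). Each condition had 3 libraries, all labelled wild type and grown in the same medium with fetal bovine serum. The study's text names another oral squamous line, SCC9, for an analysis of hypoxic transcription, so the line is given here as labelled. Reads counted on genes came to 30186813, 36076088 and 32272716 for the hypoxia libraries and to 37278703, 29637189 and 29981208 for the normoxia libraries, in the order of their replicate numbers, which is also the order of all values by library. The labels do not say that the replicates were separate cultures, so the p-values measure the spread between these libraries, which may be technical.

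Plasminogen is a circulating zymogen that urokinase and tissue-type plasminogen activator cut to plasmin, a broad protease that dissolves fibrin and cleaves matrix proteins. Urokinase is held at the cell surface by its lipid-anchored receptor, whereas the tissue-type activator works mainly on fibrin, and serpins trap either activator in covalent complexes that are taken up through endocytic receptors of the low-density lipoprotein receptor family. Squamous carcinoma cells are known for producing urokinase, its receptor and serpins at their invasive edges.

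The labels were checked first. CA9, NDRG1 and VEGFA, which are textbook hypoxia-induced genes, were each higher in all 3 hypoxia libraries than in any normoxia library. Their mean read counts, scaled to TMM-adjusted library totals as CPM, were 277 against 42.4, 10050 against 237 and 1278 against 184. Normoxia replicate 3 lay nearest to the hypoxia libraries for all 3 genes, with 409 CPM of NDRG1 beside 163 and 140 in the other normoxia libraries. Without that library the log2-fold change of NDRG1 went from 5.40 to 6.03 and that of CA9 from 2.71 to 3.20. Leaving it out also moved other genes described later, and values without it are given beside several of them. Of 9 epithelial and squamous markers, 8 were tested, 4 of them higher in hypoxia and 3 lower. Over all tested genes 39.2% were higher and 38.5% lower. CDH1, DSG3, KRT17 and DSC3 rose by 0.96 to 1.35 on the log2 scale, while SFN had a log2-fold change of -0.80, EPCAM of -0.35 and KRT5 of -0.18. The summed FPKM (fragments scaled by gene length and library total) of the 9 was 430 to 443 in hypoxia and 462 to 477 in normoxia, led by EPCAM. The basal keratin KRT14 had 0 counts in 5 libraries and 1 count in normoxia replicate 2, so this defining marker was all but absent.

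The 4 genes did not move together. PLAU, PLAUR and SERPINE2 were lower in hypoxia and PLAT was higher, and for each of them the 3 hypoxia values lay wholly on one side of the 3 normoxia values. By edgeR's quasi-likelihood test with Benjamini-Hochberg adjustment over 14255 genes, all 4 passed an adjusted p of 0.05, but 77.8% of all tested genes did so, and the conditions did not overlap for 80.5% of them. PLAT was among the 39.2% of tested genes called higher and the other 3 among the 38.5% called lower. With 3 libraries against 3, a two-sided exact permutation test of a single gene cannot give less than p = 0.1, which is the value all 4 reached. Bulk RNA does not tell apart fewer cells that make a transcript and less of it in each cell.

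**Figure D1:**
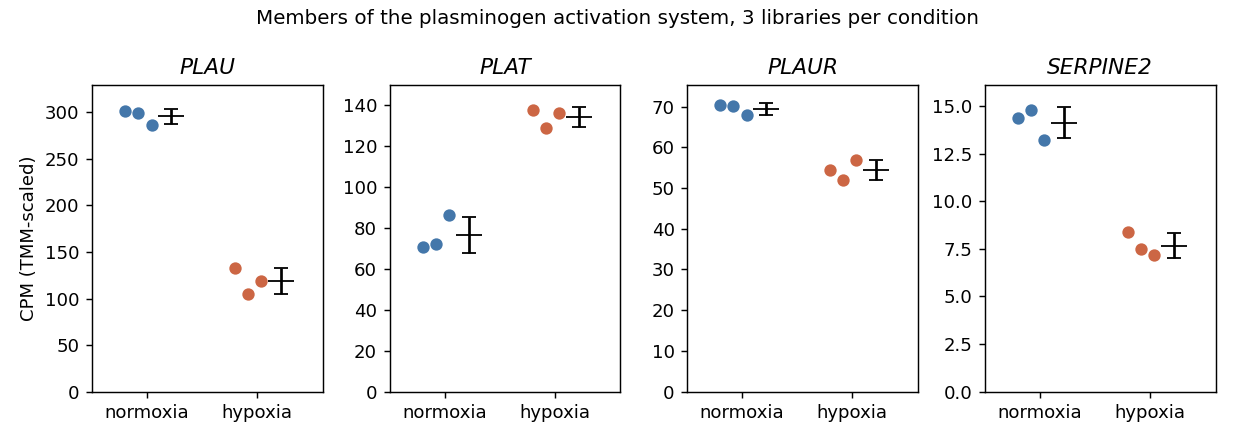
TMM-scaled CPM of PLAU, PLAT, PLAUR and SERPINE2 (vertical axes, each from 0) in the 3 normoxia and 3 hypoxia libraries (points), with the mean and SD as bars. PLAU fell from a mean of 296 to 119 CPM while PLAT rose from 76.4 to 134 CPM, and no gene's conditions overlap.

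Of the activators, PLAU had 133, 105 and 118 CPM in the 3 hypoxia libraries and 301, 299 and 287 CPM in the 3 normoxia libraries. These rest on 3842 to 4055 reads per hypoxia library and 8479 to 11215 per normoxia library. Every hypoxia value was under every normoxia value by a wide margin, and the hypoxia libraries were spread more widely than the normoxia ones. The mean CPM fell from 296 ± 7.96 to 119 ± 13.9 (SD, n = 3 each), a log2-fold change of -1.32 ± 0.0693 (SE) or 2.49-fold lower (edgeR, adjusted p = 1.53e-11). PLAU changed most of the 4 genes and stood in place 2927 of all tested genes by absolute log2-fold change.

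PLAT, the other activator, went the opposite way. It had 138, 128 and 136 CPM in the 3 hypoxia libraries and 70.7, 72.2 and 86.3 CPM in the 3 normoxia libraries. The hypoxia libraries lay close together, and among the normoxia libraries replicate 3 was the highest. The mean CPM rose from 76.4 ± 8.62 to 134 ± 4.94 (SD, n = 3 each), a log2-fold change of 0.81 ± 0.0691 (SE) or 1.76-fold higher (edgeR, adjusted p = 8e-09). Without normoxia replicate 3 the log2-fold change was 0.89.

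PLAUR, the receptor, changed least of the 4. It had 54.4, 51.9 and 57.0 CPM in the 3 hypoxia libraries and 70.3, 70.1 and 67.8 CPM in the 3 normoxia libraries. Both sets were tight, and the highest hypoxia library stayed clear of the lowest normoxia library. The mean CPM fell from 69.4 ± 1.39 to 54.4 ± 2.55 (SD, n = 3 each), a log2-fold change of -0.35 ± 0.0580 (SE) or 1.28-fold lower (edgeR, adjusted p = 2.86e-05). By absolute log2-fold change it stood in place 9953 of all tested genes.

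SERPINE2, the serpin, which inhibits thrombin and both activators, was the rarest of the 4 transcripts. It had 256, 278 and 232 reads in the 3 hypoxia libraries and 535, 423 and 391 reads in the 3 normoxia libraries. Scaled to CPM these were 8.38, 7.47 and 7.15 in hypoxia and 14.4, 14.8 and 13.2 in normoxia. The lowest normoxia library stood well above the highest hypoxia library on the CPM scale. The log2-fold change was -0.88 ± 0.112 (SE), with mean CPM of 7.67 ± 0.640 in hypoxia and 14.1 ± 0.813 in normoxia (SD, n = 3 each), or 1.84-fold lower (edgeR, adjusted p = 1.3e-06). The larger standard error goes with the lower counts.

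**Figure D2:**
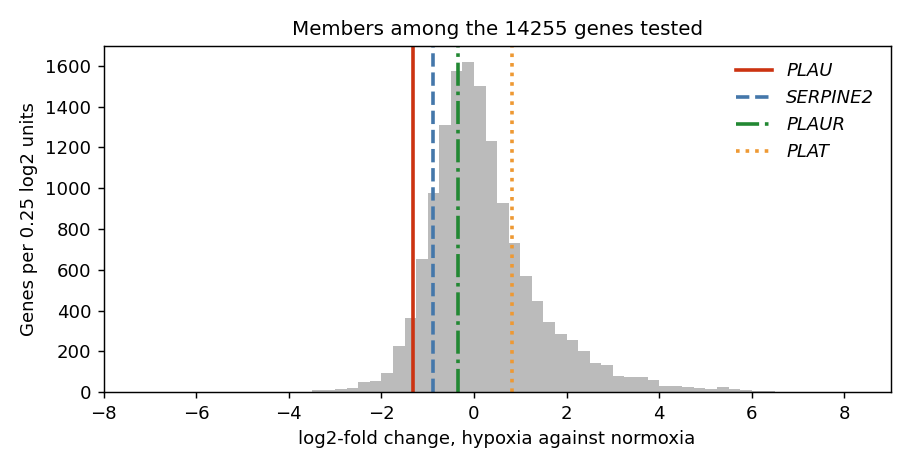
Number of tested genes (vertical axis, in bins of 0.25) by log2-fold change of hypoxia against normoxia (horizontal axis) for all 14255 genes tested, with vertical lines at the 4 genes. PLAU at -1.32, SERPINE2 at -0.88, PLAUR at -0.35 and PLAT at 0.81 all lie within the broad body of the distribution.

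The place of the 4 genes among the tested genes was moderate. Ordered by size, PLAU was the 743rd of the 5495 genes called lower, SERPINE2 the 1888th and PLAUR the 4509th, and PLAT was the 3292nd of the 5595 called higher. In all, 4338 tested genes were called and changed by at least 1 on the log2 scale, and PLAU was the only one of the 4 among them. The median log2-fold change of all tested genes was 0.023.

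Levels were compared between genes in FPKM, which takes account of gene length. In normoxia PLAU led at 105 ± 3.31 FPKM, ahead of PLAT at 24.5 ± 2.84, PLAUR at 21.7 ± 0.549 and SERPINE2 at 5.39 ± 0.285 (SD, n = 3 each). PLAU was 4.28 times as abundant as PLAT there. PLAT and PLAUR, which followed each other in that order, differed by 2.82 FPKM, no more than the SD of PLAT of 2.84, although their values did not overlap. In hypoxia PLAT had 44.4 ± 1.13 FPKM and PLAU 43.5 ± 4.71, and this difference of 0.956 FPKM was within the spread between libraries. PLAUR followed at 17.6 ± 0.606 FPKM and SERPINE2 at 3.02 ± 0.252. In the order of all tested genes by mean FPKM, PLAU went from place 576 in normoxia to 1270 in hypoxia and PLAT from 2498 to 1230.

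The order of the activators thus closed up. The ratio of PLAU to PLAT in FPKM was 4.71, 4.58 and 3.67 in the 3 normoxia libraries and 1.07, 0.904 and 0.961 in the 3 hypoxia libraries. The normoxia library with the lowest ratio, replicate 3, was still far above every hypoxia library. On the log2 scale the ratio fell by 2.14, or 4.40-fold (exact permutation test, two-sided, p = 0.1, the smallest possible). PLAU also fell against its receptor. The FPKM ratio of PLAU to PLAUR was 4.86, 4.84 and 4.79 in normoxia and 2.77, 2.30 and 2.36 in hypoxia, 1.96-fold lower with p = 0.1 by the same exact test.

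Against the serpin SERPINE2 the activators parted. The FPKM ratio of PLAU to SERPINE2 was 19.5, 18.8 and 20.2 in the 3 normoxia libraries and 14.7, 13.1 and 15.4 in the 3 hypoxia libraries, or 1.36-fold lower. That of PLAT to SERPINE2 was 4.14, 4.11 and 5.50 in normoxia and 13.8, 14.5 and 16.0 in hypoxia, or 3.25-fold higher. Neither ratio overlapped between the conditions, and each had an exact permutation p of 0.1.

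**Figure D3:**
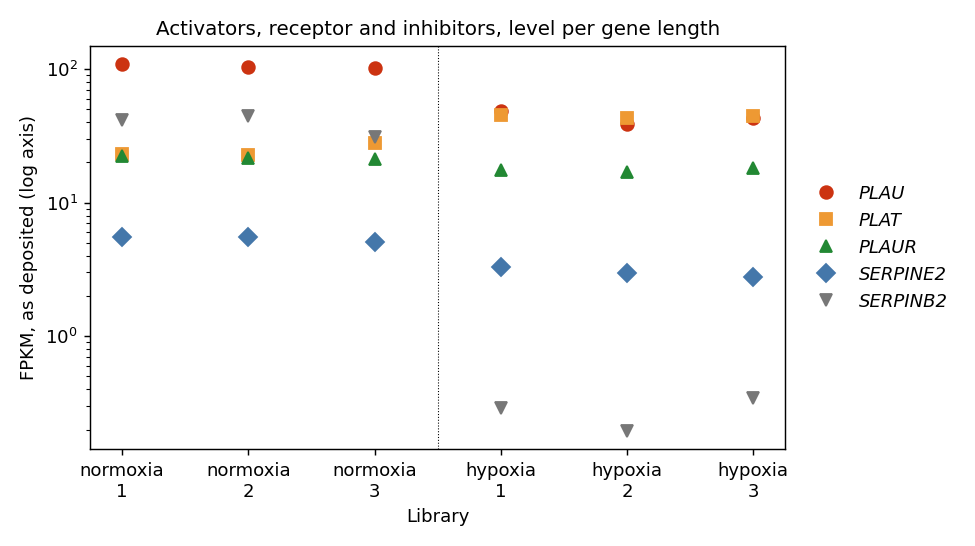
FPKM as deposited (vertical log axis) in each of the 6 libraries (horizontal axis) for the activators PLAU and PLAT, the receptor PLAUR and the inhibitors SERPINE2 and SERPINB2. PLAU and PLAT are 4.28-fold apart in normoxia and meet in hypoxia, and SERPINB2 changes by far more than the 4 genes do.

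For the genes whose windows held a motif, the bases just before the RefSeq transcription starts are printed (RefSeq, GRCh38.p14), to show which hypoxia-response letters stand before the starts of genes that fell in hypoxia. Windows of PLAU, PLAUR and SERPINE2 were used, with a pair of starts each for PLAU and SERPINE2, and that of PLAT was not analysed here. Each window holds the 250 bases before a start, written 5′ to 3′ on the gene's strand. Searched on both strands were ACGTG and GCGTG, the core letters of hypoxia response elements, and TGANTCA, the letters bound by AP-1 factors. None of the 3 motifs overlaps another in these windows, apart from ACGTG with itself on opposite strands. Capitals mark the matches.
PLAU second start, chr10:73910882-73911131, plus strand: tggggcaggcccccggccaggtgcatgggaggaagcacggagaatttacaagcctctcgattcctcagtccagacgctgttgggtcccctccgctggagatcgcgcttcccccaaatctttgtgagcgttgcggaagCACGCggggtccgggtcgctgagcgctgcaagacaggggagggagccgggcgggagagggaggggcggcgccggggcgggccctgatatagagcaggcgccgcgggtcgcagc
PLAUR, chr19:43670170-43670419, minus strand: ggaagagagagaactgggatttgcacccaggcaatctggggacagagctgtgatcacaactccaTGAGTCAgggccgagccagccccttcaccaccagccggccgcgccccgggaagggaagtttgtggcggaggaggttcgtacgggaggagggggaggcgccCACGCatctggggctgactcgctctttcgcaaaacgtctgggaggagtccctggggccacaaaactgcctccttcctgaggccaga
SERPINE2 first window, chr2:224031479-224031728, minus strand: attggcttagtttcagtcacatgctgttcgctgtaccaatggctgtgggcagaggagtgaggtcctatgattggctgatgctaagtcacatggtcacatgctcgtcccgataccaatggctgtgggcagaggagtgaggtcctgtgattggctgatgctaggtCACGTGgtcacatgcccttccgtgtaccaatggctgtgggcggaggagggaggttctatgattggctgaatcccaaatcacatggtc
SERPINE2 second window, chr2:224038641-224038890, minus strand: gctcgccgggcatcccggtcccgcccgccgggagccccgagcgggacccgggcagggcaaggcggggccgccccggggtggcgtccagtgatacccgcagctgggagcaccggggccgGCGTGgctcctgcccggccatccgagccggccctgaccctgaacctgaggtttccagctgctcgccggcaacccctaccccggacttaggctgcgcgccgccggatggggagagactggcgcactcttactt

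The second PLAU window held GCGTG on the reverse strand, 113 to 109 bases before the start. The first PLAU window (chr10:73910360-73910609, plus strand) held none of the motifs. PLAUR held GCGTG on the reverse strand 86 to 82 bases before the start and TGANTCA 186 to 180 bases before it. The first SERPINE2 window held ACGTG on both strands, as the palindrome CACGTG 87 to 82 bases before the start, and the second held GCGTG 132 to 128 bases before it. Among 35116 RefSeq windows of the same length, 18.5% held ACGTG, 32.2% held GCGTG, 43.2% held at least one of these and 6.57% held TGANTCA. The matches are a description of the letters and were not tested for binding.

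Reads could be shared with neighbouring genes at PLAU. In the GENCODE v29 annotation, 916 of the 2950 exonic bases of PLAU are also exonic in C10orf55 on the opposite strand, whereas PLAUR, PLAT and SERPINE2 share none with another gene. C10orf55 had 28, 28 and 31 reads in hypoxia and 83, 71 and 75 in normoxia, 0.691 to 0.885% of the PLAU count in each library. Its log2-fold change of -1.46 ± 0.271 had the direction of PLAU, and which of its reads came from PLAU was not tested. LYPD3, a paralog of PLAUR, rose by 0.89 ± 0.161 on the log2 scale, from 8.39 to 15.6 CPM, opposite to PLAUR. It rose by 1.16 without normoxia replicate 3 and by 0.71 without normoxia replicate 2.

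The rest of the pathway was followed in a list of 68 genes by role, of which 63 were in the table and 48 passed the filter on low counts. Of these 48, 33 were higher in hypoxia and 11 lower, and 4 did not pass the test, so that 91.7% were called beside 77.8% of all tested genes. The 33 higher genes are 68.8% of the list and the 11 lower ones 22.9%, beside 39.2% and 38.5% of all tested genes. The median log2-fold change of the list was 0.46 beside 0.023 over all tested genes, and nothing particular to the list or to a role in it was tested. HPN, TMPRSS4, ITGB3 and MMP9, 4 of the 48, reached the filter level of 0.32 CPM in every hypoxia library but not in every normoxia library, so they passed the filter through hypoxia. Without them 29 of 44 genes were higher (65.9%) and 11 lower, with a median of 0.39, an alternative chosen after the data had been seen, and the counts by role are given with and without them. PLG, the gene of plasminogen itself, was on the list but was not among the genes in the table.

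Of the proteases that can activate pro-urokinase or act upstream of it, 7 were tested, with 5 higher, 1 lower and 1 not called. Without HPN and TMPRSS4, 3 of 5 were higher (60.0%), beside 39.2% of all tested genes. PRSS8, which encodes the membrane-anchored protease prostasin, had 108, 111 and 114 CPM in hypoxia and 33.0, 27.1 and 37.8 CPM in normoxia, a log2-fold change of 1.77 ± 0.0853. TMPRSS4, a transmembrane serine protease, had 10.2, 12.6 and 11.2 CPM in hypoxia and 0.672, 0.140 and 0.980 CPM in normoxia. Its change was 4.22 ± 0.280, or 4.67 without normoxia replicate 3 and 3.79 without normoxia replicate 2. Both PRSS8 and TMPRSS4 were low or modest in normoxia and clearly apart in hypoxia. HPN, which encodes hepsin, a transmembrane protease that cleaves pro-urokinase, had 17, 28 and 13 reads in hypoxia and 0 in every normoxia library. Set against a floor of 3 counts per library, it was at least 5.96-fold higher. ST14, which encodes matriptase, an activator of pro-urokinase, was by far the more abundant of these proteases at 434 to 437 CPM in hypoxia and 384 to 404 CPM in normoxia, a change of 0.15 ± 0.0482 whose call was lost without a filter on low counts and without normoxia replicate 1 (edgeR, adjusted p = 0.0888 and 0.0828). Of 5 genes for surface proteins that bind plasminogen, 2 were higher (40.0%), 2 lower (40.0%) and 1 not called, beside 39.2% and 38.5% of all tested genes. KRT8, a keratin that binds plasminogen at the cell surface, fell by 0.32 ± 0.0578 on the log2 scale. ENO1, the glycolytic enolase that also binds plasminogen, had a change of 0.12 ± 0.0534 with an adjusted p of 0.0428 (edgeR), and its CPM values overlapped between the conditions. Its call was lost in 6 of 11 alternatives, among them the replicate block (edgeR, adjusted p = 0.0911) and no filter (adjusted p = 0.143).

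Of the receptor partners and clearance receptors, 12 of 13 tested genes were higher and 1 was lower, and without ITGB3 11 of 12 were higher (91.7%, beside 39.2% of all tested genes). LRP1, the endocytic receptor that takes up activator-inhibitor complexes, had 305, 397 and 339 CPM in hypoxia and 31.5, 29.7 and 58.5 CPM in normoxia. It was higher in every hypoxia library, and normoxia replicate 3 was again the nearest. Its log2-fold change was 3.13 ± 0.176, or 3.49 without that library. SORL1, a sorting receptor of the same family, rose by 1.45 ± 0.0658 on the log2 scale. MRC2, a collagen uptake receptor that associates with the urokinase receptor, had 3.54, 3.04 and 3.17 CPM in hypoxia and 0.806, 0.594 and 1.25 CPM in normoxia. It rose by 1.88 ± 0.279 on the log2 scale, or by 2.17 without normoxia replicate 3. Of the integrins that contact the urokinase receptor, ITGA5 had 399 to 452 CPM in hypoxia and 93.9 to 110 CPM in normoxia and rose by 2.12 ± 0.0683. ITGB3, a subunit of the vitronectin receptor, rose by 4.43 ± 0.268 from under 1 CPM. It rose by 4.84 without normoxia replicate 3 and by 4.11 without normoxia replicate 2. ITGB1, the common beta subunit, rose by 0.53 ± 0.0545 at 674 to 1029 CPM. CAV1, the membrane scaffold caveolin-1, rose by 0.73 ± 0.0639.

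The inhibitors included the gene with the largest fall of the list. SERPINB2, which encodes plasminogen activator inhibitor 2, had 20, 16 and 25 reads in hypoxia and 3485, 3003 and 2113 reads in normoxia. It was nearly absent in every hypoxia library, and normoxia replicate 3 lay nearest to hypoxia. The log2-fold change was -7.20 ± 0.179, and -7.36 without normoxia replicate 3. In all, 5 of 7 tested inhibitors were higher (71.4%, beside 39.2% of all tested genes) and 2 lower. SERPINA5, the protein C inhibitor, which also inhibits urokinase, rose by 3.06 ± 0.132 to 18.8 to 21.6 CPM. SERPINF2, which encodes the plasmin inhibitor alpha 2-antiplasmin, rose by 1.15 ± 0.112. SPINT2, a Kunitz inhibitor of pro-urokinase activating proteases, rose by 0.50 ± 0.0518 at 483 to 728 CPM. TFPI2, a Kunitz inhibitor of plasmin, fell by 1.26 ± 0.121 on the log2 scale.

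The summed level of the activators, chosen after these values were seen, was also compared. PLAU and PLAT together came to 93.9, 82.3 and 87.6 FPKM in the 3 hypoxia libraries and 132, 127 and 130 FPKM in the 3 normoxia libraries. Every hypoxia sum was under every normoxia sum, so the rise of PLAT did not make up for the fall of PLAU in transcript level. Neither protein nor protease activity was measured in these libraries.

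Of the plasmin targets, 7 of 10 tested genes were higher and 3 lower, and without MMP9, a gelatinase, 6 of 9 were higher (66.7%, beside 39.2% of all tested genes). THBS1, the matrix glycoprotein thrombospondin-1, had 360, 264 and 274 CPM in hypoxia and 2166, 2430 and 1827 CPM in normoxia, a log2-fold change of -2.84 ± 0.109, or -2.96 without normoxia replicate 3. MMP1, the interstitial collagenase, whose proenzyme plasmin can activate, had 47, 12 and 21 reads in hypoxia and 321, 191 and 180 reads in normoxia, a log2-fold change of -3.14 ± 0.326. Hypoxia replicate 1 held the most of its hypoxia reads, and the change was -3.90 without that library and -2.72 without hypoxia replicate 2. Both were lower in every hypoxia library. MST1, whose pro-form is cut by hepsin and related proteases, rose by 3.26 ± 0.264, or by 3.63 without normoxia replicate 3. BDNF, whose precursor plasmin cleaves, rose by 1.94 ± 0.173. LTBP1, which binds latent TGF-beta in the matrix, had a log2-fold change of 1.499 ± 0.406, which ranged from 1.18 without hypoxia replicate 1 to 1.86 without normoxia replicate 3.

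Of 6 tested genes for coagulation at the cell surface, 2 were higher (33.3%), 2 lower (33.3%) and 2 not called, beside 39.2% and 38.5% of all tested genes. F3, tissue factor, the starter of coagulation, was abundant at 531 to 581 CPM over all 6 libraries and did not pass the test, with a log2-fold change of -0.050 ± 0.0521 (edgeR, adjusted p = 0.385) that turned to 0.027 under a minimum of 10 counts per library and was -0.11 without normoxia replicate 3. PROCR, the endothelial protein C receptor, did not pass either, at -0.15 ± 0.0830 (edgeR, adjusted p = 0.115), but was called lower without normoxia replicate 3 (-0.20, adjusted p = 0.036) and without a filter on low counts (-0.19, adjusted p = 0.0463). Without normoxia replicate 2 it was at -0.069. TFPI, the inhibitor of the tissue factor pathway, rose by 1.04 ± 0.0824. THBD, thrombomodulin, which turns thrombin towards protein C, had 4.98, 5.11 and 4.93 CPM in hypoxia and 16.6, 16.2 and 17.7 CPM in normoxia and fell by 1.75 ± 0.110 on the log2 scale.

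**Figure D4:**
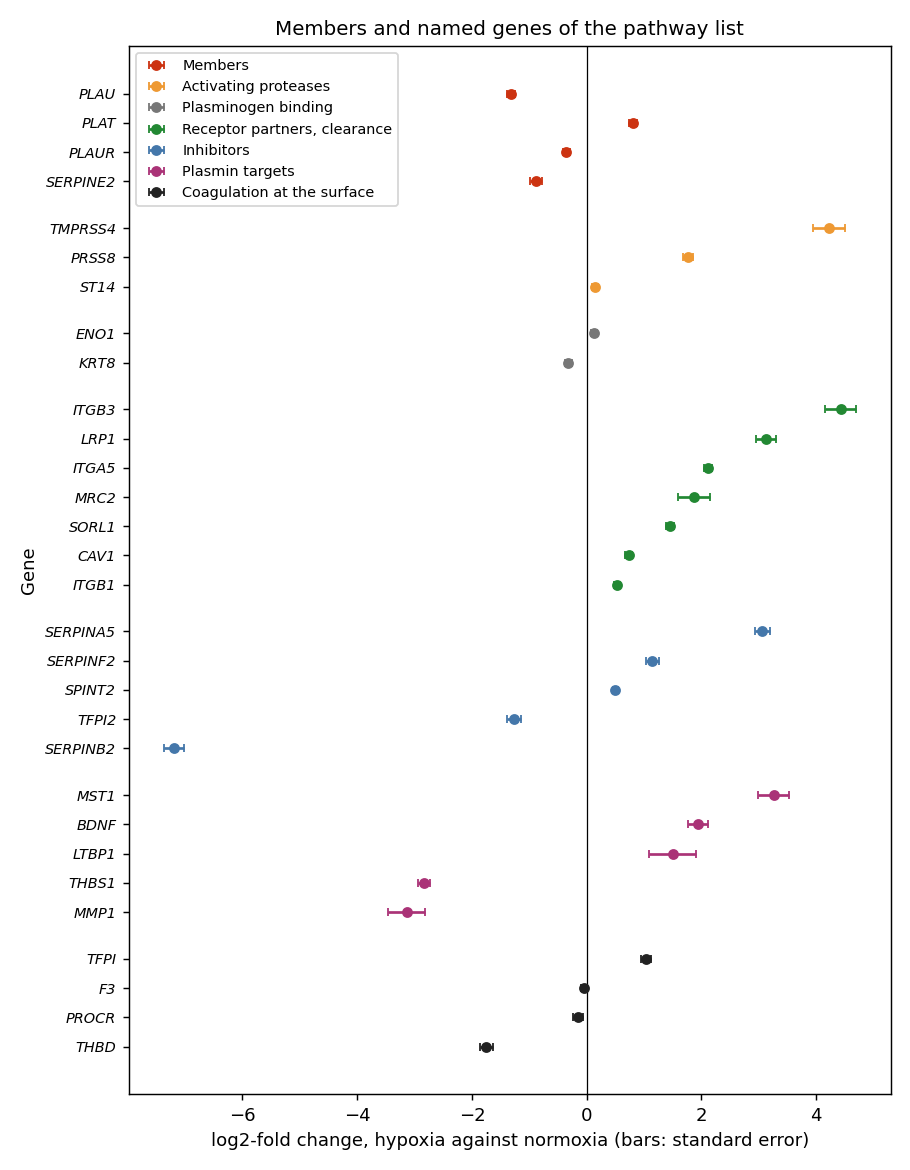
Log2-fold change of hypoxia against normoxia (horizontal axis, edgeR, bars are standard errors) for the 4 genes and the named genes of the pathway list (vertical axis), coloured by role. HPN is left out because its normoxia libraries had 0 counts, and ITGB3 at 4.43 and SERPINB2 at -7.20 lie farthest apart.

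In the annotation deposited with the counts, the Reactome term Dissolution of Fibrin Clot holds all 4 genes. Of its 6 other tested genes reported here, 3 were higher and 3 lower in hypoxia, beside 39.2% higher and 38.5% lower over all tested genes. Beyond genes already given, the higher ones were S100A10, the plasminogen receptor light chain, at 0.32 ± 0.0576, and SERPINB6, an intracellular serpin, at 0.55 ± 0.0614. The lower ones were ANXA2, the annexin partner of S100A10, at -0.32 ± 0.0504, and SERPINB8, another intracellular serpin, at -2.17 ± 0.0747. The subunits of the annexin A2 and S100A10 complex thus moved in opposite directions, each by 1.25-fold.

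The genes whose pattern over the 6 libraries was most like each of the 4 were found among 11573 tested genes by the root mean square difference in centred log2 CPM. For PLAU they were SPATA33, POP5 and RRN3, at 0.0276 to 0.0286. For PLAUR they were ARMT1, GALNT18 and G3BP2, at 0.0185 to 0.0201. For PLAT they were NPC2, CD9 and TPBG, at 0.0309 to 0.0390, and for SERPINE2 NUP42, SNHG3 and EED, at 0.0124 to 0.0273. No gene of the pathway list was among these 12, and since the libraries fall into their conditions, this measure mainly compares the size of the change between them.

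Markers of fibroblasts, endothelium and leukocytes were also measured. The summed FPKM of 6 fibroblast markers was 2.96 to 3.96 in hypoxia and 0.516 to 0.959 in normoxia, led by COL1A1 at a mean of 1.85 FPKM, with 5 of the 6 under 1 FPKM. That of 4 endothelial markers was at most 0.331 FPKM, led by CDH5. That of 5 leukocyte markers was 17.7 to 21.4 FPKM in hypoxia and 18.4 to 20.1 FPKM in normoxia, mostly CD68, a lysosomal protein, at 18.5 and 19.1 FPKM, a level near that of PLAUR and above that of SERPINE2. PTPRC, the defining leukocyte marker, had 0 counts in 5 of 6 libraries. CSF1R, of the same class, rose by 2.49 ± 0.227 on the log2 scale, from 0.262 to 1.54 FPKM. The fibroblast and endothelial sums were also higher in every hypoxia library, as PLAT was. The part of these markers in the changes of the 4 genes was not tested.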

How the data were processed

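RNA sequencing of 3 hypoxia and 3 normoxia libraries was analysed. The authors deposited counts, whole numbers of reads per gene without normalization, and FPKM of the same genes, scaled by gene length and total count. The aligner, counter, annotation and use of strand are not given in the sources used here. The labels name the mouse builds GRCm38 and mm10 although the organism and gene symbols are human, so no coordinates were taken from the files. There were 0 unused sample columns.

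Counts were tested in R 4.3.3 with the quasi-likelihood F test of edgeR 4.0.16, TMM normalization, filterByExpr (14255 genes), condition as the only term and a Benjamini-Hochberg threshold of 0.05. Standard errors are the absolute log2-fold change over the root of the F statistic. CPM use TMM-adjusted totals, with a prior count of 2 on the log2 scale. The biological coefficient of variation was 0.0685. Ratios within a library used FPKM. A count of 0 was set to a floor of 3 counts per library, which covers counting error only. All replicate pairs differed by more than sampling noise (chi-square per gene 5.11 to 11.5). The test was tried on simulated counts first.

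The genes and lists were chosen with earlier results of these data known. Genes were named by role. Up to 5 had an adjusted p under 0.05 and a log2-fold change of at least 1 in size. Up to 2 were among the most abundant by FPKM. Some genes that met these limits, such as SERPINI1, SPINT1 and FN1, were not named. Also named were the 3 nearest patterns per gene (mean log2 CPM of at least 1), possible sharers of reads and 3 label checks. Genes of the Reactome term were added. Alternatives were DESeq2 1.42.0 size factors and Wald test, no filter, a minimum of 10 counts per library, a block for the replicate number, each library left out, and limma 3.58.1 on log2(FPKM + 1) or log2(FPKM + 0.1). Ratios were recomputed with 1 FPKM added and from CPM. The sum of PLAU and PLAT was added after the values were seen. Some genes of the list and of the term are not reported here and were left out of their counts.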

Additional observations from a re-analysis of the deposited data

How the results depend on the processing

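The log2-fold changes of PLAU, PLAUR, PLAT and SERPINE2 kept their direction and passed the test in all 14 alternatives run for each, with adjusted p-values of at most 5.66e-05, 0.00081, 0.000263 and 0.000362. With 1 library left out they ranged from -1.41 to -1.24 for PLAU, -0.39 to -0.32 for PLAUR, 0.74 to 0.89 for PLAT and -0.96 to -0.84 for SERPINE2, and the other alternatives gave -1.36 to -1.24, -0.39 to -0.27, 0.77 to 0.89 and -0.92 to -0.67, where log2(FPKM + 1) understates the change of low genes. Between 9967 and 11920 genes were called. Of the pathway list, 29 to 33 genes were higher and 11 to 15 lower. With the replicate number as a block, the changes were -1.32, -0.35, 0.82 and -0.88 in the same order and 10875 genes were called. The deviations of same-numbered libraries from their condition means had r of 0.0175, -0.069 and 0.00122 over all tested genes. A correlation over all genes cannot exclude a shared culture or batch, so whether the numbers pair the libraries is not known. With a library left out, the smallest exact p for a ratio is 0.2, and all 4 ratios kept their direction. Among the other 36 named genes, F3 changed sign, at 0.027 with at least 10 counts in every library (adjusted p = 0.629). ENO1 failed the test in 6 alternatives (adjusted p up to 0.208) and ST14 in 2, without a filter and without normoxia replicate 1 (adjusted p = 0.0888 and 0.0828). PROCR, not called, passed in 2, without a filter and without normoxia replicate 3. The median log2-fold change of shared genes shifted by 0.077 under the minimum of 10 counts and by -0.041 without a filter. The causes were not tested. Depth limits the genes with few reads, such as HPN, MMP1 and LTBP1.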
